A study of Homo sapiens with 6 samples.

Results

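Described here are the RNAs of 10 human genes whose products switch on the replication-dependent histone genes or shape the 3′ ends of their mRNAs: SLBP, NPAT, CASP8AP2, LSM10, LSM11, ZNF473, CPSF3, CSTF2, SYMPK and ERI1. They were found by symbol in a table of 62754 genes, each in 1 row, and all 10 passed a filter on low values that left 17951 genes. The table comes from RNA sequencing of HPNE-hTERT, a single non-malignant line of human pancreatic ductal cells immortalized with telomerase. One group of 3 libraries came from cells given FOLFIRINOX for 4 days, namely oxaliplatin at 5 µM, SN-38 (the active form of irinotecan) at 25 nM and 5-fluorouracil at 10 µM, to make them senescent. The other 3 libraries came from cells given DMSO, here called vehicle, and libraries of both groups were read at day 4. The column headers add P14, P15 or P19 to each library, and these names are used below.

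Values are normalized reads, that is gene reads divided by a size factor per library, and ± is the SD over 3 libraries. A log2 difference is FOLFIRINOX minus vehicle on the log2(value + 1) scale with its standard error (SE), from limma, a linear model fitted to all genes at once. A gene is said to have risen or fallen when its Benjamini-Hochberg adjusted p over the 17951 genes was under 0.05. At that threshold 11.4% of all genes tested rose (2047) and 12.2% fell (2191). With libraries scaled to a common total the split was 2684 higher and 1699 lower, and the median log2 difference of all genes moved from 0.02 to 0.13. Separate cultures are named in no label, so the tests speak to variation among these 6 libraries, which may be technical. In bulk RNA, fewer cells with a transcript and less of it per cell cannot be told apart.

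Libraries held 83981154 to 97762802 gene reads. The mitochondrial ribosomal RNA share was 0.552% to 0.864% in vehicle and 1.18% to 2.74% in FOLFIRINOX, highest in the P14 library of each group. The treatment showed in 4 check genes: the p53 targets CDKN1A and MDM2 rose, by 3.22 and 3.04 on the log2 scale, while MKI67 and LMNB1, high in cycling cells, fell, with differences of −8.78 and −5.58 (limma adjusted p at most 1.53e-06). The labels call the cells ductal epithelial, and 6 of 10 ductal epithelial markers passed the filter, with KRT18 at 9901, KRT8 at 1776 and SOX9 at 1545 normalized reads in vehicle. KRT19, EPCAM and CFTR were under the filter, and EPCAM was at 0 in all vehicle libraries. All 10 mesenchymal and progenitor markers passed. SOX9 and KRT18 fell, by 0.96 and 0.47 on the log2 scale, as did NES and COL1A1, by 1.69 and 1.05 (limma adjusted p = 0.00281, 0.043, 3.79e-05 and 0.00939). With 1 library left out the limma adjusted p of KRT18 was 0.0308 to 0.179, under 0.05 for the vehicle P19 library alone, and COL1A1 was not called without both P14 libraries. KRT8, KRT19, EPCAM and CFTR were named after their values were seen. Summed over each list, ductal markers reached 11979 to 14439.7 normalized reads per library in vehicle and 8966 to 9959 in FOLFIRINOX. Mesenchymal markers reached 3562280.0 to 5314970.0 and 2591810.0 to 3143730.0, and the part of these shifts in the results below was not tested. Markers of blood, endothelial, liver, islet and acinar cells summed to 24.6 to 46.7 in vehicle and 26.6 to 78.4 in FOLFIRINOX.

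Most mRNAs end in a poly(A) tail. Replication-dependent histone mRNAs, made in S phase to package new DNA, normally end instead just after a short stem-loop. NPAT sits at the histone gene clusters, and its phosphorylation by cyclin E and CDK2 helps switch their transcription on. SLBP binds the stem-loop, the U7 small nuclear ribonucleoprotein with LSM10 and LSM11 pairs with the RNA downstream, CASP8AP2 (FLASH) joins LSM11 to the cleavage complex of SYMPK, CSTF2 and the endonuclease CPSF3, and ERI1 trims the new end. RNA that escapes this cleavage can be cut and polyadenylated further downstream.

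The stem-loop is shown because it is the element that SLBP and ERI1 bind. It was searched by its consensus on the sense strand of GENCODE 29 transcripts and found in 29 of 68 listed replication-dependent histone genes. Of the 68, 64 have a transcript there, and 45.3% of those 64 matched, against 0.114% of all genes. The stem-loop took 6 forms, and the commonest was in 15 of the 29 genes. Some genes without a match have short annotated exons, such as H4C1 with 312 bases and H2BC12 with 381. Whether their annotation reaches the stem-loop was not checked, so a missing match does not show that a gene lacks it. Capitals mark the 16 bases of the stem-loop, with 5 bases on each side, for the pair of histone genes with the largest rises (H4C8 and H2BC5), the histone gene with the most normalized reads, not divided by length (H2AC6) and an H3 gene that rose by the median of the tested histones (H3C6).
H4C8: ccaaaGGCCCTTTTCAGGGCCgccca
H2BC5: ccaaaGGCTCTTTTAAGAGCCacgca
H2AC6: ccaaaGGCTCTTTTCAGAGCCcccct
H3C6: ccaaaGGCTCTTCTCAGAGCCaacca
The longest annotated transcript ran on past the stem-loop by 1655 bases in H4C8, 39 in H2BC5, 1128 in H2AC6 and 1862 in H3C6. A match is a description of the annotated RNA, and the table gives no read positions, so where the counted reads lay was not analysed here.

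Among the 10 genes, LSM11 and SLBP had less RNA after FOLFIRINOX and none passed the test upward. LSM11, the U7-specific ring protein that holds CASP8AP2, fell 1.72-fold, and SLBP, the stem-loop binding protein, fell 1.39-fold. The other 8 had adjusted p-values from 0.150 to 0.975. So 2 of 10 fell, where 12.2% of all genes did and 23.6% were called in either direction, and the median log2 difference of the 10 was −0.31, where that of all genes tested was 0.02. Groups did not overlap for 5 of the 10 genes, 4 of them lower in FOLFIRINOX (SLBP, LSM11, CSTF2, ERI1) and 1 higher (ZNF473), beside 19.6% and 19.9% of all genes and 39.5% in either direction. Count tests on the recovered reads also called SLBP and LSM11 lower and none higher, with edgeR calling 13.3% of the 17951 genes lower and 10.1% higher and DESeq2 9.89% and 9.5% of the 23247 genes to which it gave an adjusted p, a larger set. At an unadjusted limma p under 0.05, none of the 10 was higher and 2 were lower. The share of all genes under that unadjusted threshold was not counted, here or for the lists below. The shares above are for adjusted p and are no measure for it.

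**Figure D1:**
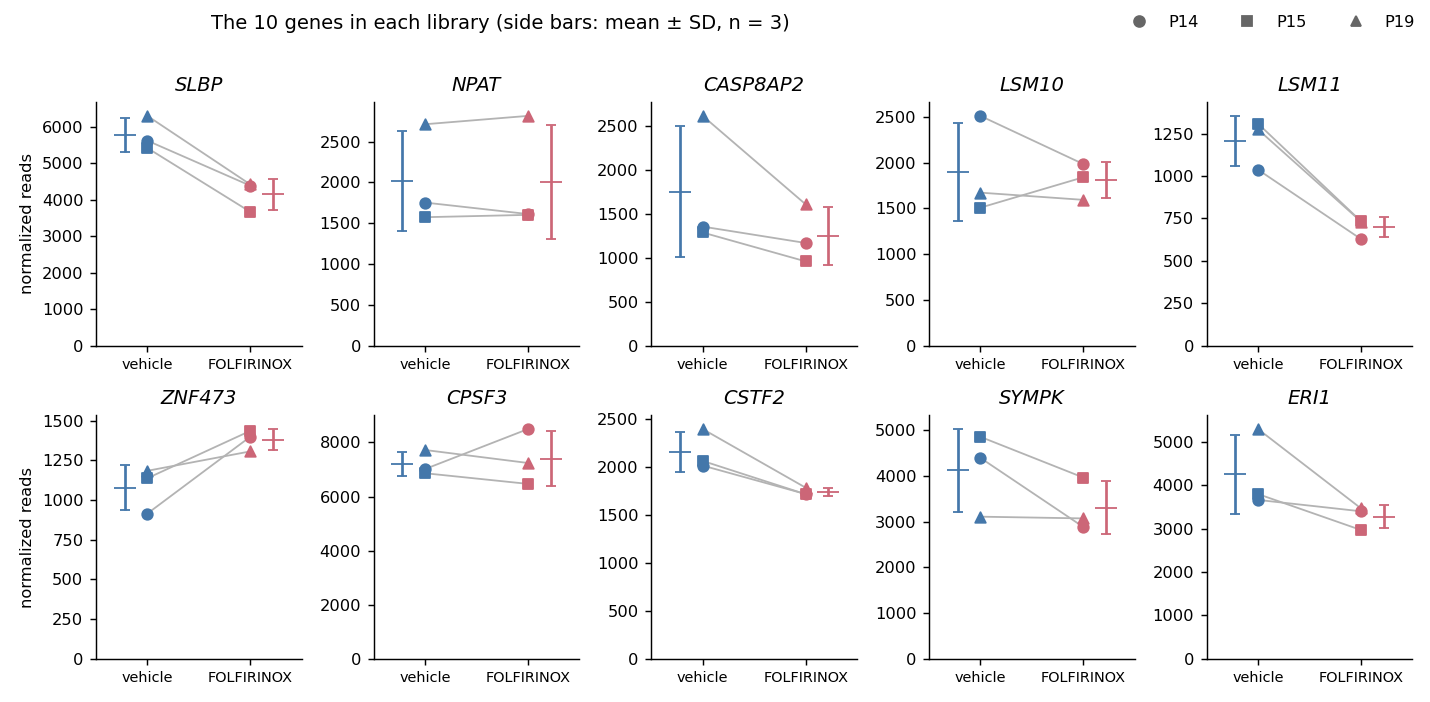
Normalized reads (y axis, from 0) of each of the 10 genes in the 3 vehicle and 3 FOLFIRINOX libraries; marker shape gives the P number, grey lines join libraries with the same P number, and side bars are mean ± SD (n = 3). SLBP and LSM11 sit lower in every FOLFIRINOX library than in any vehicle library, while NPAT and CPSF3 overlap between groups.

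SLBP lies on the minus strand of chromosome 4 at 1692800 to 1712555 (GRCh38, GENCODE 29). It read 5616, 5414 and 6295 in vehicle P14, P15 and P19, and 4381, 3665 and 4415 in the FOLFIRINOX libraries of the same names. Every FOLFIRINOX library was below every vehicle library, and the gap between the groups was a little wider than the range within either. The mean went from 5775 ± 461 to 4154 ± 424, a log2 difference of −0.48 ± 0.16 SE (95% interval −0.82 to −0.13, limma adjusted p = 0.0477). The call is marginal: leaving out any single library of the 6 ended it, with adjusted p from 0.0707 (FOLFIRINOX P14 left out) to 0.165 (FOLFIRINOX P15 left out). The authors' deposited table gives SLBP a log2 fold change of −0.48 with an adjusted p of 0.0461. DESeq2 on the recovered reads returned these same values, so the deposited result is not separate support.

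Libraries with the same P number deviated together, which reads them as pairs, so a fit with P number as a replicate block is given where it changes a call. In it 22.3% of all genes rose and 21.8% fell, 44.1% in all. With that block SLBP had adjusted p = 0.00115, and its P14, P15 and P19 log2 differences were −0.36, −0.56 and −0.51, lower in 3 of 3 pairs.

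LSM11 lies on the plus strand of chromosome 5 at 157743695 to 157760709. Its values were 1038, 1309 and 1275 in vehicle P14, P15 and P19 and 629, 734 and 732 in FOLFIRINOX. The groups did not overlap, the lowest vehicle library being above the highest FOLFIRINOX library. From 1207 ± 148 to 698 ± 60.3, the log2 difference was −0.79 ± 0.18 SE (95% interval −1.17 to −0.40, limma adjusted p = 0.00858), and the fall held without any 1 library (adjusted p 0.0113 to 0.0396). The authors' deposited table gives it −0.79 with an adjusted p of 0.000884, again the values of DESeq2 on the recovered reads.

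LSM10, the partner of LSM11 in the U7 ring, is on chromosome 1 at 36391238 to 36397892, minus strand. It read 2511, 1508 and 1672 in vehicle P14, P15 and P19, and 1984, 1840.1 and 1593 in FOLFIRINOX. The groups overlapped, with the highest value in vehicle P14. The log2 difference was −0.04 ± 0.21 SE (95% interval −0.50 to 0.42, limma adjusted p = 0.909), an interval that allows a change of up to 0.50 downward. In the spliceosomal ring the places of LSM10 and LSM11 are taken by SNRPD1 and SNRPD2, whose log2 differences were −0.65 ± 0.25 and −0.51 ± 0.26 (limma adjusted p = 0.0877 and 0.193). The blocked fit gave these genes adjusted p = 4.54e-05 and 0.00058. SNRPD1 was also called lower when FOLFIRINOX P14 or vehicle P15 was left out (limma adjusted p = 0.0166 and 0.0444). The U7 RNA itself has no poly(A) tail: RNU7-1 had 1 read in FOLFIRINOX P15 and 0 in the other libraries, where a count of 0 allows up to 3 reads.

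CASP8AP2, the FLASH protein, spans 89829894 to 89874436 on chromosome 6, plus strand. It read 1356, 1289 and 2618 in vehicle P14, P15 and P19, and 1169.6, 959.9 and 1610.0 in FOLFIRINOX. The P19 library was the highest of each group, and FOLFIRINOX P19 lay above vehicle P14 and P15, so the groups overlapped. The log2 difference was −0.45 ± 0.28 SE (adjusted p = 0.285). The P14, P15 and P19 differences of CASP8AP2 were −0.21, −0.43 and −0.70, and the blocked fit called it lower (limma adjusted p = 0.00855).

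ZNF473 encodes ZFP100, a zinc finger protein that contacts both LSM11 and the SLBP-bound stem-loop. It is on chromosome 19 at 50025714 to 50053414, plus strand. Its values were 915, 1137 and 1184 in vehicle P14, P15 and P19 and 1399, 1436 and 1307 in FOLFIRINOX. It was the only one of the 10 whose FOLFIRINOX libraries all lay above the vehicle libraries. From 1079 ± 144 to 1380.5 ± 66.7, the log2 difference was 0.36 ± 0.17 SE (95% interval −0.01 to 0.74, limma adjusted p = 0.150), with adjusted p = 0.0343 under the replicate block. On the opposite strand VRK3 and the antisense gene AC010624.3 cover 3.23% and 3.55% of its exonic length.

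CPSF3, the endonuclease of both histone and poly(A) cleavage, is on chromosome 2 at 9423568 to 9473101, plus strand. It read 7016, 6862 and 7721 in vehicle P14, P15 and P19, and 8495, 6468 and 7240.4 in FOLFIRINOX. The FOLFIRINOX group held both the highest and the lowest of the 6 values. Means were 7199.7 ± 458 and 7401 ± 1023, a log2 difference of 0.03 ± 0.16 SE (95% interval −0.32 to 0.38, limma adjusted p = 0.903).

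SYMPK, the scaffold of the cleavage complex, lies at 45815410 to 45863290 on chromosome 19, minus strand. Its values were 4395, 4855 and 3109 in vehicle P14, P15 and P19 and 2883, 3964 and 3071 in FOLFIRINOX. The P19 libraries were almost level, and the vehicle spread was wide. The log2 difference was −0.31 ± 0.20 SE (limma adjusted p = 0.311), with adjusted p = 0.0479 under the replicate block. Its P14, P15 and P19 differences were −0.61, −0.29 and −0.02.

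CSTF2, the RNA-binding subunit CstF-64, is on chromosome X at 100820359 to 100840932, plus strand. It read 2016, 2065 and 2397 in vehicle P14, P15 and P19, and 1719, 1717 and 1786 in FOLFIRINOX. The FOLFIRINOX libraries were close together and all below vehicle. From 2159 ± 207 to 1741 ± 39.0, the log2 difference was −0.31 ± 0.16 SE (95% interval −0.65 to 0.04, limma adjusted p = 0.185, and 0.0505 in the blocked fit). The paralog CSTF2T differed by 0.15 ± 0.16 SE (adjusted p = 0.541). The ratio of CSTF2 to CSTF2T reads was 0.727 ± 0.0514 in vehicle and 0.530 ± 0.00621 in FOLFIRINOX (SD, n = 3 each), and the 2 groups did not overlap. A two-sided exact permutation test of that ratio gave p = 0.1, the smallest that 3 against 3 allows. Reads of these similar genes could be split by the authors' counting, which makes the ratio uncertain.

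ERI1, the exonuclease that trims the histone 3′ end and starts decay, is on chromosome 8 at 9002147 to 9116746, plus strand. Its values were 3666, 3801 and 5300.3 in vehicle P14, P15 and P19 and 3403, 2971 and 3470.3 in FOLFIRINOX. Vehicle P19 stood above the other 5 libraries, and the remaining vehicle libraries were close to the FOLFIRINOX ones. The log2 difference was −0.36 ± 0.18 SE (95% interval −0.76 to 0.04, limma adjusted p = 0.183, and 0.0189 with the replicate block).

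NPAT, the transcriptional coactivator, lies at 108157215 to 108222642 on chromosome 11, minus strand. It read 1753, 1573 and 2712 in vehicle P14, P15 and P19, and 1612, 1602 and 2815 in FOLFIRINOX. Both P19 libraries were above all others, and within each P number the treatment groups were close. The log2 difference was −0.01 ± 0.26 SE (95% interval −0.60 to 0.57, limma adjusted p = 0.975). With the replicate block the interval narrowed to −0.27 to 0.25 (adjusted p = 0.940). ATM, on the opposite strand, overlaps 1.9% of its exonic length.

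**Figure D2:**
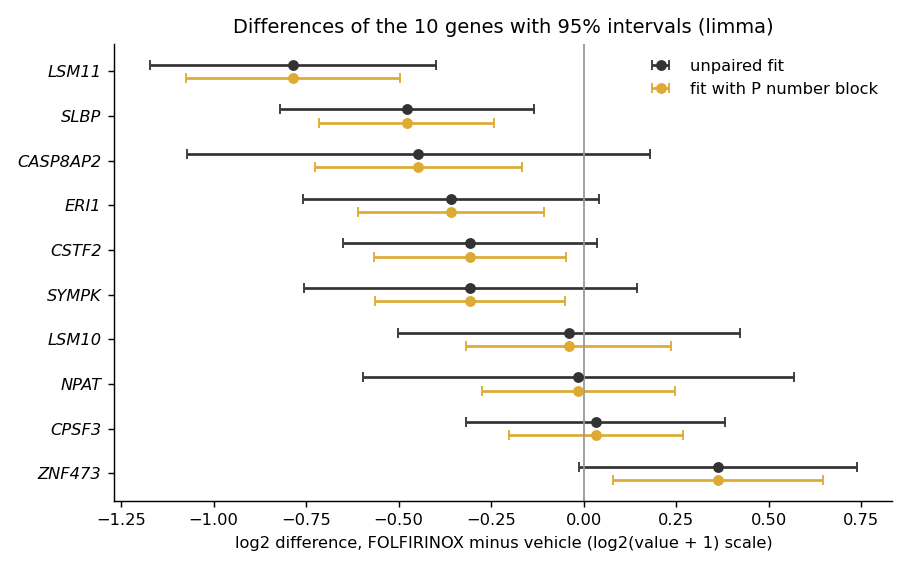
Log2 difference (x axis, FOLFIRINOX minus vehicle) of each of the 10 genes with its 95% interval, from the unpaired limma fit (black) and the fit with P number as a block (yellow). LSM11 at −0.79 and SLBP at −0.48 have intervals below 0 in both fits, while NPAT, LSM10 and CPSF3 lie within 0.05 of 0.

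With the replicate block, then, 5 of the 10 genes fell (SLBP, LSM11, CASP8AP2, SYMPK and ERI1) and 1 rose (ZNF473), beside 21.8% and 22.3% of all genes. SLBP, LSM11, CASP8AP2, CSTF2, SYMPK and ERI1 were lower in all 3 pairs, and ZNF473 was higher in all 3. How many of all genes agreed in sign over the pairs was not counted, so no excess is claimed for these genes.

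Per kilobase of exon, SLBP had the highest level of the 10 in vehicle, 2850.5 ± 228 normalized reads per kb. CPSF3 followed at 1910.2 ± 122, LSM10 at 1268 ± 360, CSTF2 at 987 ± 94.9, ERI1 at 666 ± 142 and SYMPK at 388 ± 85.2. Lowest were NPAT at 267 ± 81.3, CASP8AP2 at 215 ± 91.6, LSM11 at 183 ± 22.5 and ZNF473 at 156 ± 20.9. The vehicle libraries of neighbours in this order overlapped for LSM10 and CSTF2 and along the run from SYMPK to ZNF473, so the order there is not resolved. In FOLFIRINOX LSM11 was at 106 per kb and thus the lowest of the 10, below CASP8AP2 at 153 and ZNF473 at 200.1.

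Promoters of 8 of the 10 genes were in the RefSeq table for GRCh38.p14 (250 bases before to 50 after the start), and ZNF473 and ERI1 were not matched. The E2F element (TTTCCCGC, TTTCGCGC, TTTGCCGC or TTTGGCGC on either strand) is shown because E2F factors drive S phase genes. It occurred in 3 of the 8, CASP8AP2, CPSF3 and CSTF2, and in 3.31% of all 35116 promoters. Those 35116 include promoters of genes that did not pass the filter here, an unlike set, so no excess is claimed. This holds for the other 2 elements below as well. In each window of 60 bases below, on the gene's own strand, capitals mark the word.
CASP8AP2, chr6:89829705-89829764, plus strand: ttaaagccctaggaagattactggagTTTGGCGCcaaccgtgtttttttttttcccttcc
CPSF3, chr2:9423410-9423469, plus strand: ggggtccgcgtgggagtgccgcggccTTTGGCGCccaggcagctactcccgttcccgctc
CSTF2, chrX:100820359-100820418, plus strand: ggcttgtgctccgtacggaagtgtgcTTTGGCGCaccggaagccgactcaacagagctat
The same 8-base word began at positions −149, −218 and −6, counted from the RefSeq start of each gene. These starts differ from the GENCODE starts given above. The CSTF2 window begins at the GENCODE start of CSTF2, so by that annotation its word lies inside the gene. The log2 differences of CASP8AP2, CPSF3 and CSTF2 were −0.45, 0.03 and −0.31, none of which passed the unpaired test. The CHR element (TTTGAA or TTCGAA, either strand) was in LSM11 and CSTF2, and in 16.4% of all promoters, and the CCAAT box (CCAAT, either strand) in LSM10, CASP8AP2 and NPAT, and in 34.6%. These are matches of letters in a short window and do not show binding.

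Around the 10 genes, 6 lists of their partners held 93 genes, all measured. Of these 16 fell and none passed the test upward, against the 12.2% and 11.4% of all genes. At an unadjusted limma p under 0.05, 1 gene each was higher in the lists of transcription, the Sm ring and SLBP turnover. In the blocked fit 36 of the 93 fell and 8 rose, where that fit called 21.8% of all genes lower and 22.3% higher. These blocked shares also apply to the blocked counts of each list below.

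In the list of histone gene transcription, 6 of 18 genes fell (median log2 difference −0.24). CCNE2, an NPAT-activating cyclin, went from 1022 ± 453 to 22.2 ± 5.64 normalized reads (−5.40 ± 0.34 SE, limma adjusted p = 1.23e-06). Its kinase CDK2, the cyclin CCNE1 and the transcription factor E2F1 fell, with log2 differences of −1.69, −1.11 and −3.65 (limma adjusted p = 1.39e-05, 0.00178 and 3.09e-07). The other pair that fell were NELFB and NELFCD, with log2 differences of −0.72 and −0.54. They are subunits of the pausing factor NELF, which also acts with the cap-binding complex on histone mRNA. NELFA and NELFE of the same factor were not called, at −0.005 and −0.39 (limma adjusted p = 0.989 and 0.0954). With the replicate block NELFE fell (limma adjusted p = 0.00601) and NELFA was not called. CDK2, CCNE1 and the NELF subunits were named after their values were seen. HINFP, which binds H4 promoters together with NPAT, was 727 ± 42.9 in vehicle and 987 ± 153 in FOLFIRINOX (0.43 ± 0.18 SE, limma adjusted p = 0.106, and 0.0158 with the replicate block).

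None of 18 other cleavage and polyadenylation factors passed the unpaired test in either direction (median 0.02). In that list edgeR and DESeq2 on the recovered reads also called none, and at an unadjusted limma p under 0.05 none was higher and 1 lower. Further, 1 gene was called lower without vehicle P19, and with the replicate block 2 were higher and 3 lower. CSTF2T, given above, is among them.

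Of 19 genes of the Sm ring and its assembly 2 fell. SNRPB, the SmB protein that the U7 ring shares with the spliceosomal ring, went from 4855 ± 305 to 2352 ± 336 (−1.05 ± 0.16 SE, limma adjusted p = 0.00103). GEMIN4, of the complex that loads Sm rings, fell by 0.99 (limma adjusted p = 0.00273). Leaving out FOLFIRINOX P14 made it 4 genes, and in the blocked fit 7 fell while 3 rose.

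In the list of cap binding, export and translation of histone mRNA, the export adaptor ALYREF alone among 9 genes fell, from 5053 ± 619 to 2419.9 ± 136 (−1.06 ± 0.16 SE, limma adjusted p = 0.000839). With the replicate block 4 of the 9 fell.

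Of 19 histone mRNA decay genes 4 fell and none passed upward (median −0.36). LSM2, of the LSM1 to LSM7 ring that binds the tailed end of the RNA, went from 2499 ± 517 to 925 ± 138 (−1.42 ± 0.19 SE, limma adjusted p = 0.000444). DIS3L2, an exonuclease for uridylated RNA, LSM4 of the same ring and the exosome subunit EXOSC10 had log2 differences of −0.99, −0.71 and −0.44 (limma adjusted p = 0.00277, 0.0113 and 0.0478). LSM4 and EXOSC10 were named after their values were seen. Leaving out either FOLFIRINOX P19 or the P14 pair brought the 4 down to 2, and in the blocked fit 10 genes fell while 1 rose.

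SLBP protein is removed at the end of S phase and in G2, and 3 of 10 genes of its turnover fell. CCNF, the cyclin F subunit of an SLBP ubiquitin ligase, went from 1745 ± 212 to 181 ± 39.6 (−3.27 ± 0.21 SE, limma adjusted p = 1.24e-06). CCNA2 and CDK1, whose complex phosphorylates SLBP, had log2 differences of −4.63 and −7.14 (limma adjusted p = 4.82e-08 and 2.41e-06). The other 7 had log2 differences between −0.40 and 0.54, with a median of −0.21 over the list. At the upper end was SKP1, of the same ligase (limma adjusted p = 0.0535), named after its value was seen. With the replicate block SKP1 rose (adjusted p = 0.00331), and the list then had 1 gene higher and 4 lower. In 5 of the 17 alternatives 1 gene of the list was called higher, among them the fit without vehicle P19.

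Beside S phase genes the changes of the 10 were small. Of 35 S phase genes 32 fell and 1, PCNA, rose, with a median log2 difference of −2.42 and an interquartile range of −3.87 to −1.65. RRM2 and MCM10, for nucleotide supply and replication start, had the lowest differences of the 35, −6.91 and −6.40. Of the 35, 32 had a lower log2 difference than SLBP and the same number a lower one than LSM11. The PCNA rise was 1.04 ± 0.16 SE (limma adjusted p = 0.00113).

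**Figure D3:**
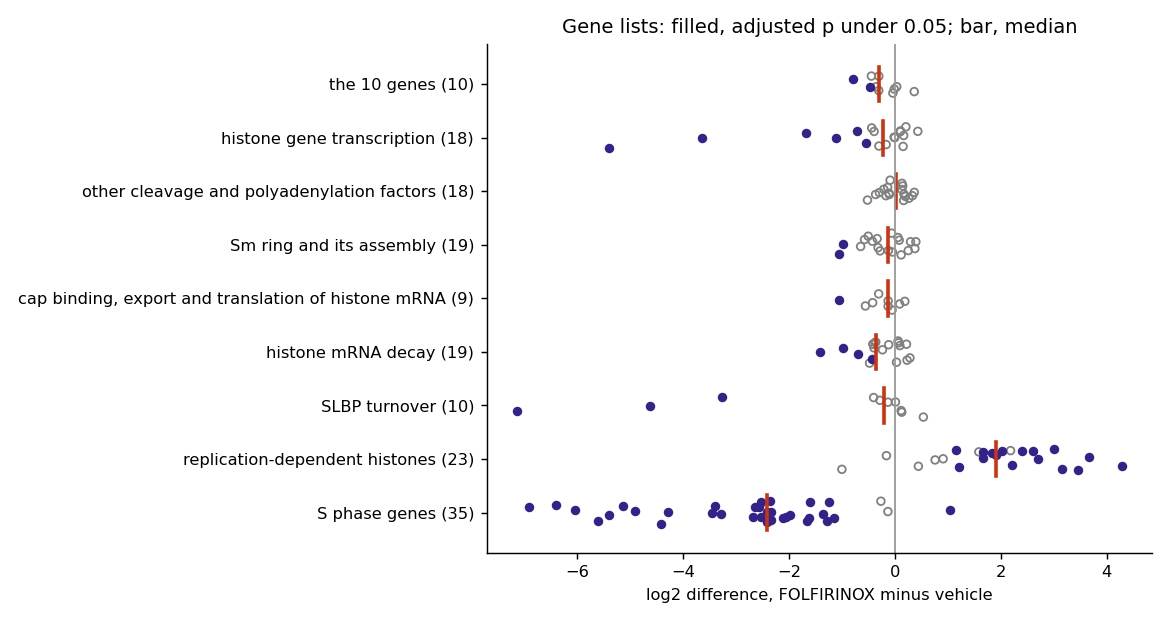
Log2 difference (x axis, FOLFIRINOX minus vehicle) of every tested gene of the 10, of 6 lists of their partners, of replication-dependent histones and of S phase genes, with the number tested in brackets; filled points passed adjusted p under 0.05 and the red bar is the median. The 10 genes and their partner lists have medians between −0.36 and 0.02, while histones have 1.90 and S phase genes −2.42.

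Replication-dependent histone RNA in these poly(A)-enriched libraries was higher after FOLFIRINOX, a result that was known when the 10 genes were chosen. Of 68 listed histone genes 23 passed the filter, of which 16 rose and none passed the test downward, also at an unadjusted limma p under 0.05 (median 1.90). By adjusted p, 11.4% of all genes tested rose and 12.2% fell. Of 16 tested genes with 10 or more normalized reads in all vehicle libraries 13 rose, and 1 of the 23 reached 10 in no vehicle library. The rest of the 23 passed the filter only with FOLFIRINOX libraries counted. Their rises, and the count and median over all 23, are therefore tilted upward by the filter. H4C8 rose 19.6-fold, from 102 ± 14.7 to 2043 ± 455, and H2BC5 12.7-fold, from 278 ± 109.6 to 3533 ± 1424 (limma adjusted p = 2.31e-07 and 1.26e-05). A GENCODE 29 transcript with a stem-loop match was found for 18 of the 23 tested genes and for 13 of the 16 that rose. As said above, genes without a match are not shown to lack the stem-loop. Histone genes resemble each other in sequence, so their counts are uncertain, and H2AC6, H1-2 and H3C6 were named after their values were seen.

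Summed over the 68 genes, histone values were 7287, 4815 and 4329 normalized reads in vehicle P14, P15 and P19, and 50616, 42691 and 36309.5 in FOLFIRINOX. The P14 library was highest in each group, as it was in mitochondrial ribosomal RNA, and the part of that share in the result was not tested. The ratio of this sum to SLBP was 1.30, 0.889 and 0.688 in vehicle and 11.6, 11.6 and 8.22 in FOLFIRINOX. As means that was 0.958 ± 0.311 against 10.5 ± 1.95, 10.9 times as much histone RNA per SLBP RNA by the ratio of means. The histone sum alone was 7.89 times as high. H2AC6 and H1-2 made up 56.1% to 58.1% of the sum in vehicle and 70.0% to 72.1% in FOLFIRINOX. Libraries were made from poly(A)-enriched RNA, so more histone RNA and a larger share of it carrying a tail cannot be told apart.

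**Figure D4:**
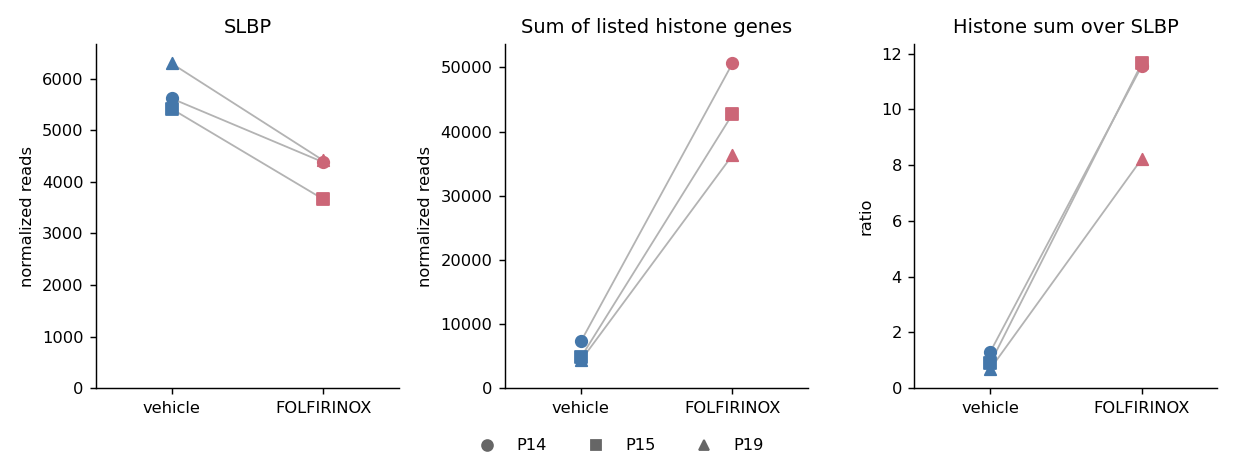
SLBP, the sum of 68 listed histone genes (both in normalized reads) and their ratio in each library, with y axes from 0 and grey lines joining libraries with the same P number. SLBP was lower and the histone sum and the ratio higher in every FOLFIRINOX library than in any vehicle library.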

How the data were processed

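The authors deposited 1 table of normalized signal per gene and library, that is, reads divided by a size factor, with their own log2 fold changes, p-values and a Wald score. The build GRCh38 and the tools STAR 2.7.11b, featureCounts 2.0.6, DESeq2 and FastQC 0.12.1 are listed, with no settings, per the submitters' processing notes. For annotation release and strand setting the entry is "not given in the sources used here". Without strand, overlapping antisense genes cannot be told apart. All values were whole multiples of 1 read within 0.001 (100% of values), so read counts were recovered.

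Differences were tested on log2(value + 1) by limma 3.58.1 (eBayes, trend on), treatment as the only term, keeping genes that reached 10 normalized reads in 3 libraries or more. The column names carry P numbers and not the labels' replicate numbers. Deviations from group means correlated at 0.257, 0.282 and 0.288 between libraries with the same P number, above the 0.1 set for pairing, and at −0.263 to −0.0272 otherwise, so P number served as a block. Replicates differed by more than sampling noise (chi-square per degree of freedom 76.0 to 231). Even numbers made up 72.3% to 74.8% of read counts below 50. Both mates of a pair may thus have been counted, which was not tested. Recovered reads, the count tests on them and the limit of 3 reads would then refer to reads and not to independent fragments. Exonic lengths and coordinates came from GENCODE 29.

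The 10 genes and all lists were chosen with earlier results of these data known. Named genes were the 10, the 4 treatment checks, CSTF2T, SNRPD1, SNRPD2, HINFP, CCNE2 and CCNF, and, for each list and direction, the 2 called genes with the largest differences whose higher group mean reached 50. The limma step was tested on simulated data. Among 17084 genes simulated with no difference, 4 passed the threshold. With a true fold of 1.5 the step found only 5 out of 65 genes. A fold of 2 was detected in 30 out of 65, and a fold of 4 in 62 out of 63. Most differences near 1.5-fold were thus missed there. A gene not called, among the 10 or on the lists, may still differ by that much. Alternatives were other pseudocounts, filters and scalings, limma without trend, edgeR 4.0.16, DESeq2 1.42.0, the block, and leaving out libraries.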

Additional observations from a re-analysis of the deposited data

How the results depend on the processing

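LSM11 stayed lower with adjusted p under 0.05 in all 17 alternatives run, and NPAT, LSM10, CPSF3 and CSTF2 were called in none. SLBP kept its sign throughout but not its call in 10 of 17: it was −0.48 without the filter and without the trend, −0.37 with common total scaling (adjusted p = 0.0655, 0.0909 and 0.131), −0.54 without both P14 libraries (0.101), and −0.52 to −0.39 with 1 library left out. Accordingly 1 of the 10 genes was called lower in those settings. With the replicate block on P number 5 were lower and 1 higher, through CASP8AP2 (−0.45), SYMPK (−0.31), ERI1 (−0.36) and ZNF473 (0.36), and SLBP and LSM11 kept their calls. Over all genes the block called 3995 higher and 3918 lower. Without both P14 libraries the counts were 1162 and 1368, and without any 1 library 1318 to 2218 higher and 1544 to 2204 lower. Common total scaling called 2684 higher and 1699 lower and moved the median log2 difference of all genes from 0.02 to 0.13. With 3 libraries a group the 95% intervals of the 8 genes not called still allow changes in at least 1 direction, so no gene is shown to be unaltered.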

Other observations

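NPAT shares its start with ATM, the DNA damage kinase gene on the opposite strand, and 159 bases of the 2 genes overlap in GENCODE 29, 143 of them exonic. ATM, looked up after the NPAT values were seen, read 3703, 4506 and 6579 in vehicle P14, P15 and P19 and 5176, 6149 and 8151 in FOLFIRINOX. Like NPAT it was highest in the P19 library of each group, and unlike NPAT it was higher in FOLFIRINOX within each P number (log2 difference 0.41, limma adjusted p = 0.232, and 0.00383 with the replicate block). Whether the 2 genes differ in their response was not tested. ZNF473 and VRK3, on the other strand, overlap by 223 exonic bases, 3.23% of the exonic length of ZNF473, and VRK3 differed by −0.26 (limma adjusted p = 0.306).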
